A study of Mus musculus with 12 samples.

Results

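The E2F transcription factors and the retinoblastoma pocket proteins were followed in bone marrow-derived macrophages (BMDMs), the macrophages that grow from mouse marrow in M-CSF. The members were taken by name, as E2f1 to E2f8, Rb1 and Rbl1, which gave 10 genes of the 23997 listed, and all 10 were among the 10581 genes tested. RNA-seq was performed on 12 libraries, 3 in each of 4 groups. The groups were WT cells left untreated, Pim1-/- cells left untreated, and cells of each genotype given LPS, the bacterial ligand of TLR4, at 100 ng/ml for 4 h. The donors were male C57BL/6 mice of 8-10 weeks, and the Pim1-/- mice carried a CRISPR deletion of Pim1 exons I to V in every cell rather than in macrophages alone. The marrow of all groups had been cultured with M-CSF for 7 days. The sources do not state whether the 3 libraries of a group came from separate mice or separate cultures, so p-values measure the spread between these libraries, which may be technical.

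The E2F family controls the genes that a cell needs to enter S phase. E2F1, E2F2 and E2F3 activate these genes when free, E2F4 and E2F5 repress them in resting cells together with a pocket protein, and E2F6 represses through a Polycomb complex without any pocket protein. E2F7 and E2F8 are the atypical members, which bind DNA without a DP partner and shut the S phase genes off again late in the cycle. RB1 binds mainly the activators, whereas RBL1 and its relative RBL2 bind E2F4 and E2F5, and cyclin-dependent kinases phosphorylate all 3 pocket proteins so that they let go. Several of these genes carry E2F sites themselves. M-CSF drives the proliferation of macrophage precursors, and LPS is known to halt macrophage division.

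Promoters are shown for E2f2, E2f7, E2f8 and Rbl1 because the difference in LPS response between genotypes passed the threshold for these 4 genes on the log2(FPKM + 1) scale, although for E2f2 the folds of FPKM were alike. Each runs 5′ to 3′ on the strand of its gene, from 250 bases before to 50 after the start, from RefSeq on GRCm38.p6. Capitals mark an E2F site, which was searched on both strands as TTTCCCGC, TTTCGCGC, TTTGCCGC or TTTGGCGC, or the CHR element TTTGAA, to which the MuvB complex binds in late cell cycle genes. The windows are chr4:136172024-136172323 on the + strand for E2f2, chr10:110745189-110745488 on the + strand for E2f7, chr7:48881547-48881846 on the - strand for E2f8 and chr2:157204485-157204784 on the - strand for Rbl1.
E2f2: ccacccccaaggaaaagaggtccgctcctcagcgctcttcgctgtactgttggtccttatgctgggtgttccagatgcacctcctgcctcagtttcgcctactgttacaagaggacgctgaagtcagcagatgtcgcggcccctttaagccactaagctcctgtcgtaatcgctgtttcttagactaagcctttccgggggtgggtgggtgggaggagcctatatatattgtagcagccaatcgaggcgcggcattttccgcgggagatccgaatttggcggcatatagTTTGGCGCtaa
E2f7: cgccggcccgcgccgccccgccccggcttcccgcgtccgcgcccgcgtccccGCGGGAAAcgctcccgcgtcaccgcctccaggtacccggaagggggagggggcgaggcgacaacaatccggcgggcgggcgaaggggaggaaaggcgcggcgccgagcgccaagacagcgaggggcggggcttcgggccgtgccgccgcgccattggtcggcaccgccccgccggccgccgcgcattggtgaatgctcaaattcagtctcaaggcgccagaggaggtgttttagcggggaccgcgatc
E2f8: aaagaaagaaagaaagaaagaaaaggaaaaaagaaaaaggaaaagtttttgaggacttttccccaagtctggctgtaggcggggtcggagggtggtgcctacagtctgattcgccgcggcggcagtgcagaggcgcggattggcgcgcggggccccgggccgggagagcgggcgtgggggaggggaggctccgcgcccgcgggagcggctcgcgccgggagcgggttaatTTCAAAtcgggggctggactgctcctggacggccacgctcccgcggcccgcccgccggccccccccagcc
Rbl1: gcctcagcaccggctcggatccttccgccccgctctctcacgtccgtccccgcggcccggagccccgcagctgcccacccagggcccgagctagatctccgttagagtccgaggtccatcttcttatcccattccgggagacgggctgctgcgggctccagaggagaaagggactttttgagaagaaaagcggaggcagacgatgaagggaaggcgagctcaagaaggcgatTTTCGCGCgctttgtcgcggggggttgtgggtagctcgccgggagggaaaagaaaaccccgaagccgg
The E2f2 window held TTTGGCGC from base 40 after the start, the Rbl1 window TTTCGCGC from base -18, and the E2f7 window TTTCCCGC in reverse from base -198. The E2f8 window held none of the 4 words but had TTTGAA in reverse from base -20. Of the 7 members with a promoter in the RefSeq table, 4 had an E2F site and 3 had a CHR in any of their windows. E2f3 had both in 1 window, E2f8 had the CHR alone, and E2f2 had the CHR in its other window, chr4:136180532-136180831, which is not shown. E2f4, E2f5 and Rb1 were not matched. The only E2f1 window, chr2:154569377-154569676, lies inside the gene as annotated (chr2:154569892 is its 5′ end), so the sequence before that end was not searched. Across the genome 2.6% of 27025 genes with a promoter had one of the E2F words in any window and 20.2% had the CHR. By promoter the shares were 2.26% and 17.9% of 32851. A match describes letters and not binding, which was not measured here.

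The files give a value per gene and library that was taken to be FPKM. This is a fragment count divided by transcript length and by a library factor. The value that 1 fragment adds could be read from low genes, and gave about 30700000 to 39500000 fragments per library. At these depths 1 fragment per kilobase was worth 0.0222 to 0.0272 FPKM in untreated and 0.0319 to 0.0493 FPKM in LPS-treated libraries. The library factor was thus not the fragment number alone, and FPKM changes with LPS rest on it. Median-ratio factors of the deposited values were 0.996 to 1.016. Pearson's r between replicates across genes was 0.9977 to 0.9989, where genes are not independent replicates. The targeted gene, Pim1, had 22.9 ± 1.80 FPKM in WT against 8.73 ± 0.752 in Pim1-/- cells without treatment, and 645 ± 17.8 against 219 ± 15.6 FPKM with LPS (SD, n = 3). Its last exon lies outside the deletion, so this value does not test the deletion alone. All 10 macrophage markers were detected in each group, with sums of 28080 to 30120 FPKM in untreated WT, 14540 to 15430 FPKM in untreated Pim1-/-, 31620 to 32090 FPKM in LPS-treated WT and 16310 to 18150 FPKM in LPS-treated Pim1-/- cells. Lyz2 made up most of these sums, with a mean of 26302 FPKM in untreated WT and 13297 FPKM in untreated Pim1-/- cells. All 10 markers had a negative log2 change between untreated genotypes, and 3 of them were called lower in Pim1-/- cells. In bulk RNA, fewer cells of a type and less RNA per cell cannot be told apart. Folds between group means are folds of FPKM, whereas log2 changes come from limma on log2(FPKM + 1) across all 4 groups and understate the change of low genes. A gene was called when its change passed 2-fold, its p was under 0.05 and its p adjusted by Benjamini-Hochberg was under 0.1.

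Without treatment the activator E2f2 was called higher in Pim1-/- cells, E2f1 and E2f2 fell with LPS in both genotypes, and E2f3 did not follow them. E2f1 (GRCm38 chr2:154559407-154569892) was at 10.9, 11.4 and 10.3 FPKM in untreated WT libraries, 18.7, 17.7 and 18.8 FPKM in untreated Pim1-/-, 2.99, 3.16 and 2.88 FPKM in LPS-treated WT and 6.81, 7.47 and 6.81 FPKM in LPS-treated Pim1-/- libraries. No group overlapped another. LPS lowered it 3.61-fold in WT (log2 change -1.57, SE 0.05, adjusted p = 9.1e-14) and 2.62-fold in Pim1-/- cells (-1.28, SE 0.05, adjusted p = 1.9e-12). Between genotypes it was 1.70-fold higher in untreated Pim1-/- cells, under the fold threshold at a log2 change of 0.71, and 2.34-fold higher after LPS, just past it at 1.00. That last call was lost when WT replicate 1 (0.999), WT replicate 3 (0.98) or Pim1-/- replicate 2 (0.96) of the LPS-treated libraries was left out.

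E2f2 (chr4:136172394-136196057) showed the deepest LPS response of the 10 genes. It was at 4.99, 4.62 and 4.84 FPKM in untreated WT and 11.7, 11.5 and 12.6 FPKM in untreated Pim1-/- libraries. After LPS it was at 0.0943, 0.0295 and 0.0526 FPKM in WT libraries and 0.117, 0.148 and 0.216 FPKM in Pim1-/- libraries. The 4 groups did not overlap, and both LPS-treated groups were close to the detection limit. The WT values after LPS rest on about 10, 3 and 5 fragments, against 843, 839 and 953 in untreated WT libraries. The fall was 81.9-fold in WT and 74.5-fold in Pim1-/- cells, and estimated from fragments summed over each group it was 79.1-fold (95% interval 49.9 to 134) in WT and 74.1-fold (57.7 to 96.8) in Pim1-/- cells, where the intervals cover counting error only. In untreated cells the genotypes differed 2.48-fold (log2 change 1.15, SE 0.06, adjusted p = 6.1e-11), and after LPS the difference was 2.65-fold (1.55 to 4.76) from fragments but 0.13 on the log2(FPKM + 1) scale, under the threshold.

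E2f3 (chr13:29906575-29986063) was at 3.81, 3.91 and 3.57 FPKM in untreated WT, 4.36, 4.04 and 4.37 FPKM in untreated Pim1-/-, 6.20, 6.31 and 6.31 FPKM in LPS-treated WT and 3.92, 4.18 and 4.47 FPKM in LPS-treated Pim1-/- libraries. The LPS-treated WT libraries stood above all others, and both Pim1-/- groups overlapped. Its estimated fragments were 694, 766 and 759 in untreated and 693, 674 and 633 in LPS-treated WT libraries. The higher FPKM after LPS thus rests on the library factor. None of the differences of E2f3 passed the fold threshold. The log2 change with LPS was 0.61 in WT (adjusted p = 2.2e-08) and -0.02 in Pim1-/- cells (95% interval -0.13 to 0.10, adjusted p = 0.74).

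**Figure D1:**
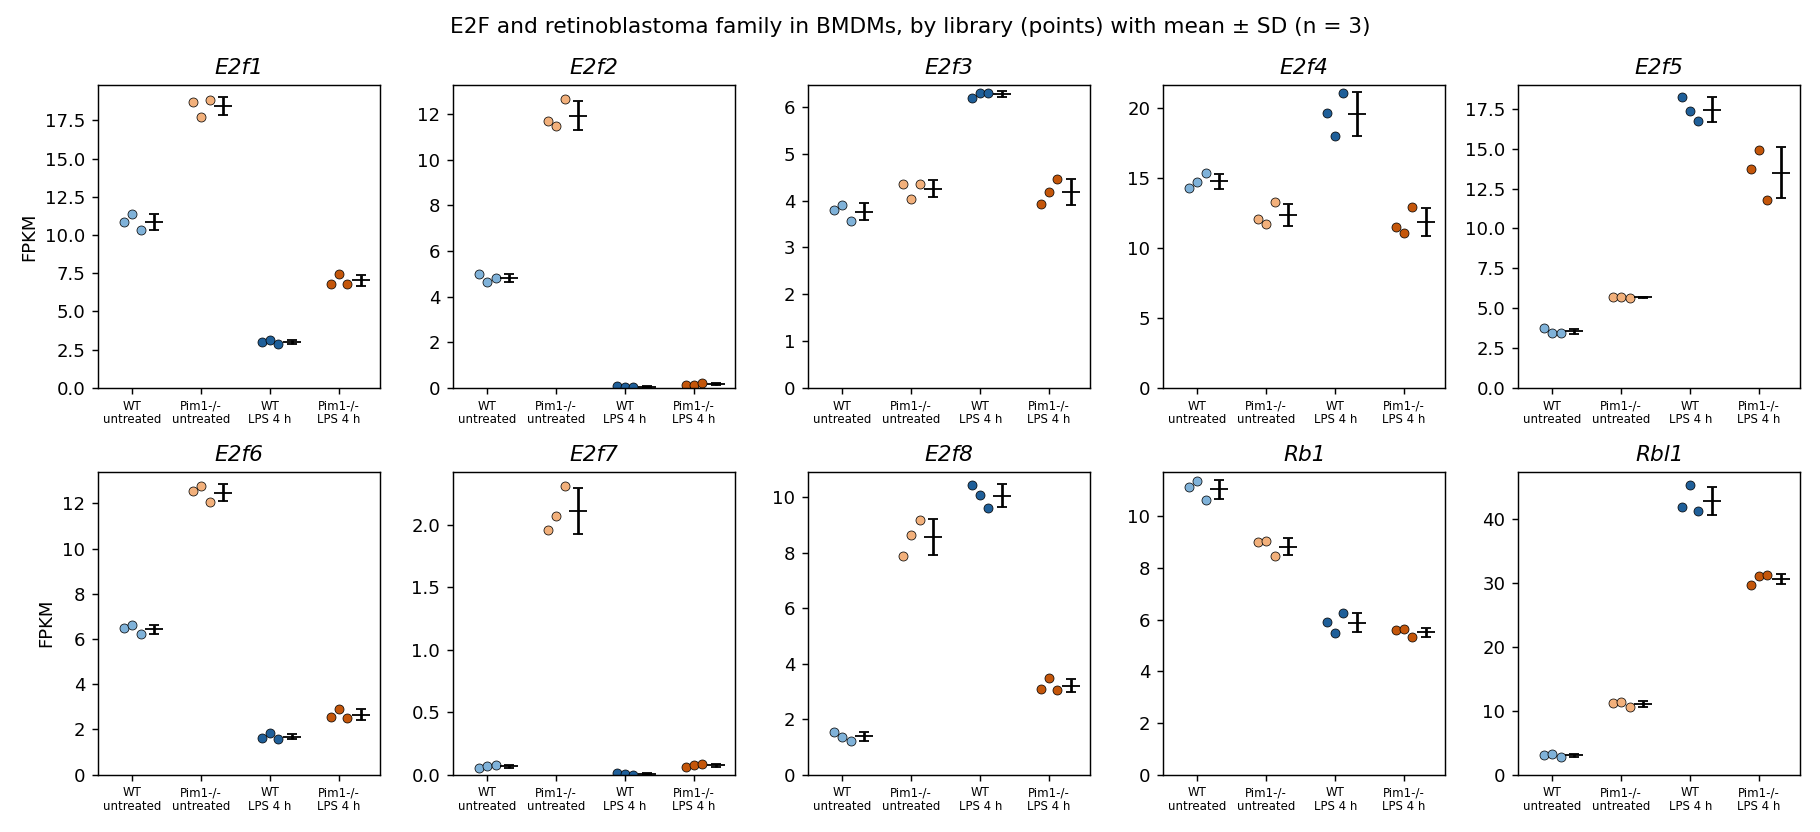
FPKM of the 10 genes by library (points) with the mean and SD of each group (black, n = 3), on linear axes from 0 that differ between panels. E2f8 is high in untreated Pim1-/- and in LPS-treated WT libraries and low in the other 2 groups, whereas E2f2 is near 0 after LPS in both genotypes.

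Among the canonical repressors, E2f5 rose and E2f6 fell with LPS in both genotypes, and E2f4 stayed under the fold threshold throughout. E2f4 (chr8:105297663-105305370), the main repressor of resting cells, was at 14.2, 14.7 and 15.3 FPKM in untreated WT, 12.1, 11.7 and 13.2 FPKM in untreated Pim1-/-, 19.6, 18.0 and 21.1 FPKM in LPS-treated WT and 11.5, 11.03 and 12.9 FPKM in LPS-treated Pim1-/- libraries. The LPS-treated WT libraries were again the highest and both Pim1-/- groups overlapped. Its estimated fragments were 965, 1069 and 1214 in untreated and 817, 715 and 787 in LPS-treated WT libraries. Here too the higher FPKM after LPS rests on the library factor. After LPS E2f4 was 1.65-fold lower in Pim1-/- than in WT cells (log2 change -0.68, SE 0.07, adjusted p = 1.8e-07).

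E2f5 (chr3:14578641-14606309), the other pocket protein-dependent repressor, was at 3.73, 3.46 and 3.46 FPKM in untreated WT and 5.71, 5.67 and 5.64 FPKM in untreated Pim1-/- libraries, and reached 18.3, 17.4 and 16.7 FPKM in LPS-treated WT and 13.7, 14.9 and 11.8 FPKM in LPS-treated Pim1-/- libraries. The groups did not overlap, and the genotype order turned with LPS. The rise was 4.92-fold in WT (log2 change 2.02, SE 0.07, adjusted p = 7.2e-14) and 2.38-fold in Pim1-/- cells (1.11, SE 0.07, adjusted p = 2.4e-10). Its estimated fragments in Pim1-/- libraries were 419, 361 and 397 without treatment and 702, 601 and 533 after LPS. Whether E2f5 passes 2-fold in Pim1-/- cells thus depends on the library factor. A gene on the opposite strand, 1810022K09Rik, overlaps E2f5 and reached 166 FPKM. The library kit was stranded, but whether the counting used strand is not stated, so reads of these genes may not be fully separated.

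E2f6 (chr12:16810963-16839742), the pocket protein-independent repressor, was at 6.47, 6.62 and 6.22 FPKM in untreated WT, 12.6, 12.8 and 12.1 FPKM in untreated Pim1-/-, 1.63, 1.83 and 1.59 FPKM in LPS-treated WT and 2.56, 2.92 and 2.49 FPKM in LPS-treated Pim1-/- libraries. Its groups stood in the same order as those of E2f1 and E2f2, with no overlap. LPS lowered it 3.82-fold in WT (log2 change -1.47, SE 0.06, adjusted p = 5.6e-13) and 4.70-fold in Pim1-/- cells (-1.88, SE 0.06, adjusted p = 3.3e-14). The difference in untreated cells, 1.94-fold, stayed under the fold threshold on the log2(FPKM + 1) scale at 0.86.

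Both atypical repressors stood higher in Pim1-/- than in WT cells before LPS and fell with LPS in Pim1-/- cells. E2f7 (chr10:110745439-110787384) was at 0.0501, 0.0702 and 0.0775 FPKM in untreated WT libraries and 1.96, 2.07 and 2.31 FPKM in untreated Pim1-/- libraries. After LPS it was at 0.0162, 0.00847 and 0 FPKM in WT libraries and 0.0590, 0.0749 and 0.0864 FPKM in Pim1-/- libraries. Only the untreated Pim1-/- libraries reached 1 FPKM, and E2f7 passed the filter on low values through them alone. It was 32.04-fold higher in untreated Pim1-/- than in WT cells (log2 change 1.55, SE 0.05, adjusted p = 1.0e-12), and LPS lowered it 28.8-fold in Pim1-/- cells (-1.53, SE 0.05, adjusted p = 2.5e-13). In LPS-treated WT cells about 3 fragments were counted in all, and the ratio of untreated to LPS-treated WT cells was 7.74 with a counting interval of 2.48 to 39, while limma gave a log2 change of -0.08 (adjusted p = 0.174).

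E2f8 (chr7:48866429-48881596) moved with LPS in opposite directions in the 2 genotypes. It was at 1.53, 1.37 and 1.22 FPKM in untreated WT libraries and 10.4, 10.1 and 9.61 FPKM after LPS. In Pim1-/- libraries it was at 7.86, 8.65 and 9.18 FPKM without treatment and 3.07, 3.47 and 3.05 FPKM after LPS. No 2 groups overlapped. LPS raised E2f8 7.31-fold in WT cells (log2 change 2.22, SE 0.07, adjusted p = 1.7e-14) and lowered it 2.68-fold in Pim1-/- cells (-1.19, SE 0.07, adjusted p = 8.4e-11). Pim1-/- cells thus had 6.23-fold more than WT cells without treatment (2.01, SE 0.07, adjusted p = 4.4e-13) and 3.14-fold less after LPS (-1.40, SE 0.07, adjusted p = 3.8e-11).

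The pattern of E2f8 was rare among all genes, a comparison made after its values were seen. Of the 10581 genes tested, E2f8 was the 1 gene called higher after LPS in WT and lower after LPS in Pim1-/- cells. The opposite pattern was called for 1 gene, Mir8112. Between genotypes, 4 genes were called higher in untreated Pim1-/- cells and lower after LPS, which were Ccnd2, E2f8, Mt2 and Tnfsf9, but the same 12 libraries underlie both counts. This count was 2 without LPS-treated Pim1-/- replicate 1, 2 with quantile normalization and 9 with a pseudocount of 0.1. With quantile normalization 5 genes had the first pattern, E2f8, Hmgb2, Id3, Mki67 and Tmpo, and with no fold threshold 261 genes had it. E2f8 alone had it under the other alternatives that gave all 4 comparisons. The difference in LPS response of E2f8 was -3.41 on the log2 scale (SE 0.09, adjusted p = 8.9e-13), and 2 of the 10581 genes had a lower value.

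Of the pocket proteins, Rbl1 rose with LPS while Rb1 fell. Rb1 (chr14:73183673-73325822), the retinoblastoma gene itself, was at 11.2, 11.4 and 10.6 FPKM in untreated WT, 8.996, 9.03 and 8.46 FPKM in untreated Pim1-/-, 5.92, 5.50 and 6.25 FPKM in LPS-treated WT and 5.59, 5.62 and 5.32 FPKM in LPS-treated Pim1-/- libraries. The LPS-treated groups lay below the untreated ones and overlapped each other. The fall was 1.88-fold in WT (log2 change -0.81, adjusted p = 4.5e-10) and 1.602-fold in Pim1-/- cells (-0.59, adjusted p = 2.9e-08), both under the fold threshold. Its estimated fragments went from 1850, 2025 and 2057 to 602, 535 and 571 with LPS in WT libraries. In Pim1-/- libraries they went from 1824, 1591 and 1646 to 791, 626 and 665. Whether Rb1 passes 2-fold thus depends on the library factor. Rcbtb2 and Lpar6 overlap Rb1 on the opposite strand and reached 43.8 and 32.7 FPKM.

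Rbl1 (chr2:157145893-157204534) was at 3.03, 3.26 and 2.78 FPKM in untreated WT libraries, 11.1, 11.4 and 10.6 FPKM in untreated Pim1-/-, 41.9, 45.2 and 41.2 FPKM in LPS-treated WT and 29.7, 31.0 and 31.1 FPKM in LPS-treated Pim1-/- libraries. The LPS-treated groups were the highest of any member and no groups overlapped. Rbl1 rose 14.2-fold with LPS in WT cells (log2 change 3.45, SE 0.05, adjusted p = 4.4e-18) and 2.77-fold in Pim1-/- cells (1.39, SE 0.05, adjusted p = 6.9e-13). Its estimated fragments in Pim1-/- libraries were 2364, 2105 and 2151 without treatment and 4392, 3606 and 4073 after LPS. Whether Rbl1 passes 2-fold in Pim1-/- cells thus depends on the library factor. Without LPS the Pim1-/- mean was 3.66-fold that of WT cells (1.58, SE 0.05, adjusted p = 6.0e-13), whereas after LPS it was 1.40-fold lower (-0.47, adjusted p = 1.0e-06), under the fold threshold. The ratio of Rbl1 to Rb1 FPKM went from 0.273 ± 0.0126 in untreated WT to 7.30 ± 0.839 in LPS-treated WT cells, and from 1.25 ± 0.0131 to 5.56 ± 0.276 in Pim1-/- cells (SD, n = 3).

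The family's calls were set beside the share of all genes called in the same comparison. E2f7 was tested only because it is high in untreated Pim1-/- libraries, so its calls there are a description. In untreated cells 4 of the 10 were called between genotypes, E2f2, E2f7, E2f8 and Rbl1, against 7.78% of all genes, and all 4 were higher in Pim1-/- cells, where 4.40% of all genes were called higher and 3.37% lower. Without E2f7 the count was 3 of 9. After LPS 2 of 10 were called between genotypes, E2f1 higher and E2f8 lower in Pim1-/- cells, against 8.66% (3.51% higher and 5.15% lower). LPS changed 6 of 10 in WT cells, with E2f5, E2f8 and Rbl1 higher and E2f1, E2f2 and E2f6 lower, against 34.8% of all genes (20.1% higher and 14.7% lower). In Pim1-/- cells LPS changed 7 of 10, with E2f5 and Rbl1 higher and E2f1, E2f2, E2f6, E2f7 and E2f8 lower, against 25.0% (14.6% higher and 10.4% lower), or 6 of 9 without E2f7. By adjusted p alone, with no fold threshold, 10 of the 10 passed between untreated genotypes (78.8% of all genes), 8 between LPS-treated genotypes (80.9%), 9 with LPS in WT cells (91.2%), 8 with LPS in Pim1-/- cells (87.2%) and 10 for the difference in response (68.5%). The 3 libraries of each group did not overlap for 10 of 10 members between untreated genotypes (78.4% of all genes), 9 between LPS-treated genotypes (77.5%), 10 with LPS in WT cells (90.4%) and 8 with LPS in Pim1-/- cells (83.8%). At these looser limits the family lay near the background. These counts describe 10 genes chosen by name and carry no test of their own.

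For 4 of the 10 genes, or 3 of 9 without E2f7, the LPS response was called different between WT and Pim1-/- cells on the log2(FPKM + 1) scale, against 6.67% of all genes tested, and in each it was more negative in Pim1-/- cells, as for 4.43% of all genes, while 2.24% were more positive. Beside E2f8, these were Rbl1 with a difference of -2.05 on the log2 scale (SE 0.08, adjusted p = 1.0e-11), E2f2 with -1.02 (SE 0.08, adjusted p = 3.6e-08) and E2f7 with -1.45. For E2f7 the other 3 groups lay near the detection limit. From fragments its fall with LPS was 7.74-fold (counting interval 2.48 to 39) in WT and 28.6-fold (20.2 to 41.7) in Pim1-/- cells. The intervals overlap, and whether the folds differ was not tested on fragments. The difference of E2f7 was also called with a pseudocount of 0.1. The value for E2f2 was -0.58 and not called with a pseudocount of 0.1, and its folds of FPKM were alike in both genotypes. Its call was also lost, at -0.982 to -0.997, when untreated WT replicate 2, LPS-treated WT replicate 1, untreated Pim1-/- replicate 3 or LPS-treated Pim1-/- replicate 1 was left out. E2f5 had -0.91, under the threshold, and -1.04, past it, with a pseudocount of 0.1. The differences of E2f3 (-0.63), E2f4 (-0.44), E2f6 (-0.41), E2f1 (0.29) and Rb1 (0.21) were under the threshold.

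**Figure D2:**
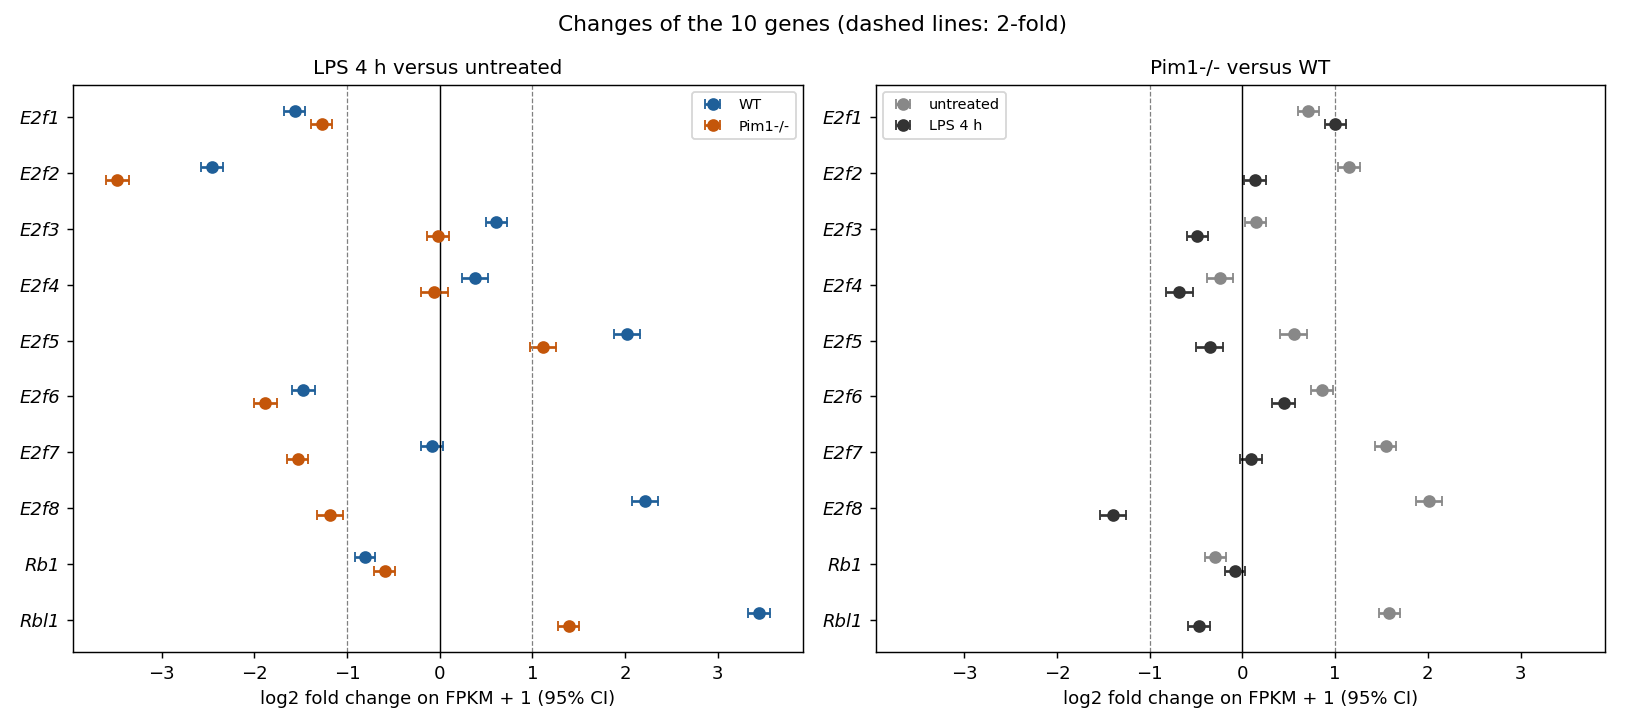
Log2 fold changes on FPKM + 1 with 95% confidence intervals for LPS against untreated in each genotype (left) and for Pim1-/- against WT in each treatment (right), with dashed lines at 2-fold. E2f8 lies on opposite sides of 0 in both panels, at 2.22 and -1.19 on the left and at 2.01 and -1.40 on the right.

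FPKM is scaled by length, so levels were also added within each class. The activators summed to 19.5 ± 0.613 FPKM in untreated WT, 34.6 ± 1.29 in untreated Pim1-/-, 9.34 ± 0.136 in LPS-treated WT and 11.4 ± 0.485 FPKM in LPS-treated Pim1-/- cells (SD, n = 3). The canonical repressors summed to 24.7 ± 0.288, 30.5 ± 0.407, 38.7 ± 1.31 and 27.96 ± 0.857 FPKM in the same order. The atypical repressors summed to 1.44 ± 0.139, 10.7 ± 0.837, 10.1 ± 0.419 and 3.27 ± 0.239 FPKM. Canonical repressors were the largest class in each group but untreated Pim1-/- cells, where activators were. Activators made up 42.6% of E2F transcripts in untreated WT cells and 16.1% after LPS, and 45.7% and 26.7% in Pim1-/- cells. The share of the atypical repressors rose from 3.16% to 17.3% with LPS in WT cells and went from 14.1% to 7.67% in Pim1-/- cells. E2f8 supplied most of the atypical transcripts in each group.

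**Figure D3:**
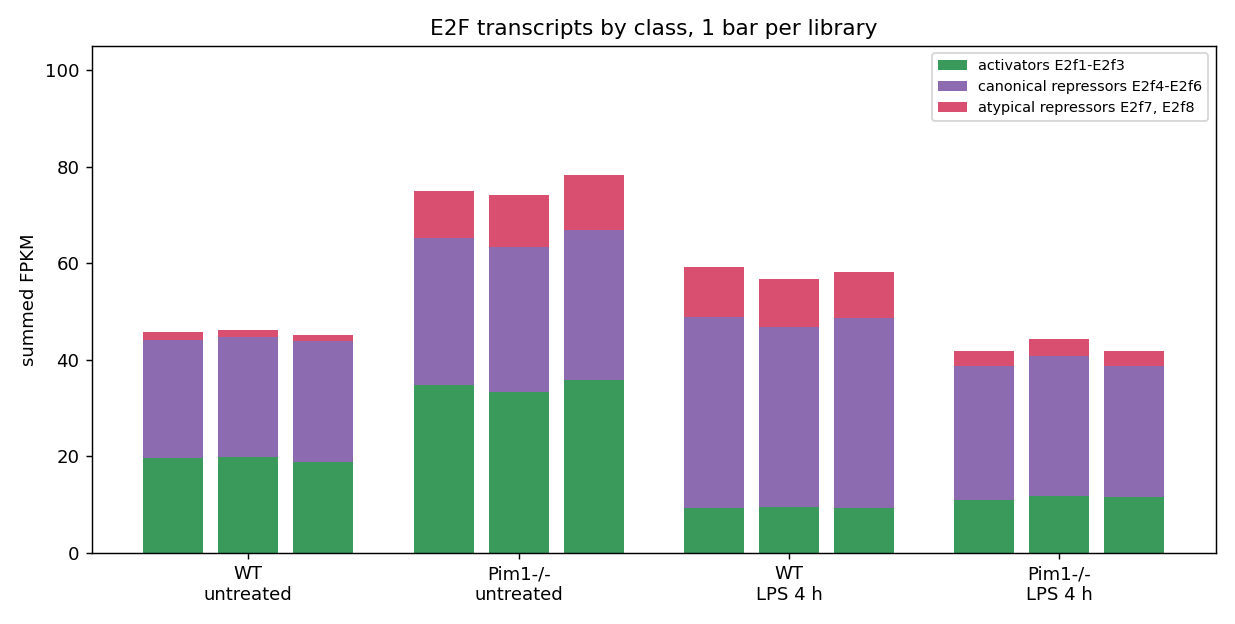
Summed FPKM of activators, canonical repressors and atypical repressors, 1 stacked bar for each of the 12 libraries. Atypical transcripts are a thin band in untreated WT libraries (mean 1.44 FPKM) and wide in untreated Pim1-/- (10.7 FPKM) and LPS-treated WT libraries (10.1 FPKM).

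Genes that E2Fs are known to control were mostly higher in Pim1-/- cells in both treatments. Of 28 E2F target genes, which make and copy DNA in S phase, 25 were called higher in Pim1-/- cells before LPS and the other 3 were positive but not called, and the median log2 change was 2.17 beside -0.05 over all genes. The largest were Tk1, thymidine kinase, at 4.09, Rrm2, a ribonucleotide reductase subunit, at 3.81 and Uhrf1, which maintains DNA methylation, at 3.45. After LPS 20 were called higher and 8 were not called, with a median of 1.50 beside -0.03 over all genes. Those called were led by Mcm7, part of the replicative helicase, at 3.16, Rrm1 at 2.93 and Mcm5 at 2.72. By adjusted p alone 2 of the 28 were lower in Pim1-/- cells. These were Cdc25a (1.90 against 4.75 FPKM in WT cells) and Slbp (13.8 against 17.0 FPKM). With a pseudocount of 0.1, 23 were called higher and 1 lower. LPS in WT cells raised 2 of 28, Pcna (1.50) and Mcm10 (1.176), and lowered 5, most of all Dnmt1 (-2.39), Mcm7 (-1.89) and Mcm3 (-1.42), or 11 of 28 with a pseudocount of 0.1. In Pim1-/- cells LPS lowered 15 and the other 13 were not called, most of all Rrm2 (-2.57), Uhrf1 (-2.51) and Dnmt1 (-2.37), with a median of -1.07 beside -0.01 over all genes. The LPS response was called more negative in Pim1-/- cells for 10 of the 28. E2F words occurred in the promoters of 11 of the 22 targets in the RefSeq table, and the CHR in 3.

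Most proliferation markers were higher in Pim1-/- than in WT cells in both treatments, and their part in the values above was not tested. With LPS their sum was about level in WT cells, but the single genes were not. Of the 16, 13 had a negative log2 change there, with a median of -0.58, while Mki67 and Tpx2 rose. Their sum ran from 59.9 to 66.7 FPKM in untreated WT, 562.8 to 574.3 FPKM in untreated Pim1-/-, 62.6 to 65.6 FPKM in LPS-treated WT and 261.7 to 282.7 FPKM in LPS-treated Pim1-/- libraries. Of 16 markers, 15 were called higher in Pim1-/- cells between untreated genotypes and 13 after LPS, with the rest not called, and the largest changes were those of the mitotic genes Nusap1 (4.24), Top2a (4.10) and Birc5 (4.04) in untreated cells. By adjusted p alone 1 of the 16, Mki67, was lower in Pim1-/- cells after LPS. Top2a, topoisomerase II alpha, was at 2.96 ± 0.134 FPKM in untreated WT, 66.9 ± 1.47 in untreated Pim1-/-, 1.76 ± 0.276 in LPS-treated WT and 34.1 ± 1.72 FPKM in LPS-treated Pim1-/- cells. Mki67, which encodes the Ki-67 antigen, was at 2.90 ± 0.233, 43.5 ± 2.31, 28.6 ± 0.924 and 26.2 ± 0.173 FPKM in that order. It thus rose 9.84-fold with LPS in WT cells (log2 change 2.92, adjusted p = 2.3e-17) and, like E2f8, moved the other way in Pim1-/- cells (-0.71, adjusted p = 2.8e-09), though under the fold threshold. LPS raised Mki67 and Tpx2 and lowered 5 of the 16 in WT cells, or 8 with a pseudocount of 0.1, and lowered 9 in Pim1-/- cells, or 14 with quantile normalization. The CHR occurred in 10 of the 14 markers with a promoter and an E2F word in 0.

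**Figure D4:**
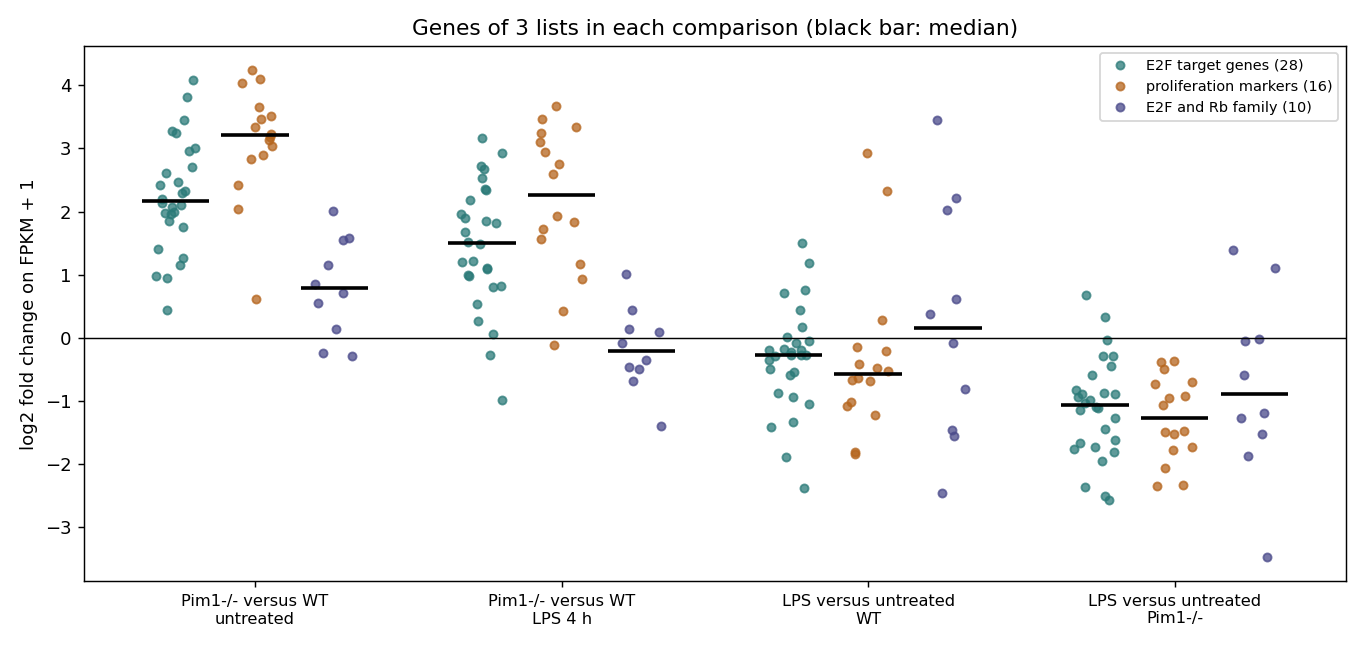
Log2 fold changes on FPKM + 1 of single genes (points) in 28 E2F targets, 16 proliferation markers and the 10 family members, with the median of each (black bar), in 4 comparisons. Targets and markers lie mostly above 0 in both genotype comparisons, with medians of 2.17 and 3.21 in untreated cells, while the family members lie on both sides of 0 after LPS.

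Many of the cyclins and kinases that phosphorylate pocket proteins were higher in untreated Pim1-/- cells. In untreated cells 6 of 10 were called higher in Pim1-/- cells and 4 were not called, led by Ccna2 (4.12), Cdk1 (2.84) and Ccnd1 (2.60). After LPS 3 were higher, Cdk1 (3.21), Ccna2 (2.78) and Cdk4 (1.12), and Ccnd2 was lower (-1.02). The D cyclins, which start pocket protein phosphorylation, moved apart with LPS. Ccnd1 fell from 6.15 ± 0.315 to 2.37 ± 0.148 FPKM in WT cells and from 42.3 ± 2.42 to 4.28 ± 0.237 FPKM in Pim1-/- cells, whereas Ccnd2 rose from 0.562 ± 0.0194 to 141 ± 2.80 FPKM in WT cells and from 3.10 ± 0.173 to 69.0 ± 3.96 FPKM in Pim1-/- cells (SD, n = 3). Ccne1, an E2F-controlled E cyclin, rose with LPS in WT cells (2.46) and had 0.34 in Pim1-/- cells, and Ccne2 fell in Pim1-/- cells (-2.26) and had -0.00 in WT cells. The LPS response was called more negative in Pim1-/- cells for 6 of 10, and 4 were not called.

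Of 7 CDK inhibitors 5 were tested. Cdkn1a, which blocks cyclin E and cyclin A kinases, rose with LPS from 50.3 ± 1.20 to 3024 ± 83.5 FPKM in WT cells and from 56.8 ± 2.97 to 1236 ± 70.8 FPKM in Pim1-/- cells, and after LPS it was lower in Pim1-/- cells (log2 change -1.29, SE 0.05). Cdkn2d, an inhibitor of Cdk4 and Cdk6, was called higher in untreated Pim1-/- cells (1.23), rose with LPS in WT cells (1.08) and had -0.62 in Pim1-/- cells. Cdkn2c, of the same class, fell with LPS in WT (-1.57) and Pim1-/- cells (-2.07).

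The DP partners and the remaining pocket protein were under the threshold between genotypes in both treatments on the log2(FPKM + 1) scale. Tfdp1, the main DNA-binding partner of E2F1 to E2F6, was at 15.8 ± 0.150 FPKM in untreated WT, 28.1 ± 0.739 in untreated Pim1-/-, 15.1 ± 0.379 in LPS-treated WT and 14.7 ± 0.758 FPKM in LPS-treated Pim1-/- cells. Tfdp2 fell with LPS from 2.29 ± 0.0419 to 0.200 ± 0.0325 FPKM in WT cells and from 3.26 ± 0.0351 to 0.777 ± 0.0338 FPKM in Pim1-/- cells. After LPS its mean was 3.89-fold higher in Pim1-/- cells with no overlap between genotypes, at a log2 change of 0.57 on FPKM + 1. Rbl2, which joins E2F4 in resting cells, fell from 11.9 ± 0.370 to 3.02 ± 0.0376 FPKM in WT (log2 change -1.68) and from 8.69 ± 0.702 to 3.63 ± 0.0884 FPKM in Pim1-/- cells (-1.06), opposite to its relative Rbl1.

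In the MuvB group, which joins Rbl2 and E2F4 in resting cells and Mybl2 and Foxm1 in dividing cells, 2 of 7 were called higher in untreated Pim1-/- cells, Foxm1 (2.63) and Mybl2 (2.12). Foxm1 was also higher after LPS (1.34), both fell with LPS in Pim1-/- cells (-1.71 and -1.70), and none passed the fold threshold with LPS in WT cells, where 5 of 7 had an unadjusted p under 0.05 by limma and Foxm1 had -0.42. Among 9 partners of E2F6 in its Polycomb complex, Cbx3 was the 1 called between genotypes, higher in untreated (1.06) and LPS-treated Pim1-/- cells (1.08). LPS raised Max in WT (2.47) and Pim1-/- cells (1.93) and lowered Cbx3 (-1.93 and -1.91) and Pcgf6 (-1.08 and -1.16). The 9 germline genes that E2F6 is known to silence were under the filter, with a sum of at most 0.544 FPKM in any library. That library was among LPS-treated WT cells, where the mean sum was 0.399 ± 0.125 FPKM against 0.245 ± 0.0383 FPKM in untreated WT cells (SD, n = 3). With LPS in WT cells Ddx4 went from 0.147 to 0.321 FPKM and Stag3 from 0.08975 to 0.0447 FPKM, while 5 of the 9 were at 0 after LPS. There 1 fragment per kilobase was worth 0.0443 to 0.0493 FPKM, against 0.0233 to 0.0272 FPKM in untreated WT libraries. A link to E2f6, which was lowest in LPS-treated WT cells, was not tested. Of 5 ubiquitin ligase parts and regulators that act on E2Fs, 3 were called higher in untreated Pim1-/- cells, Fbxo5 (2.85), Cdc20 (2.83) and Ccnf (2.44), and 4 fell with LPS in each genotype. The counts of these and the earlier lists stand beside the following shares of all genes. Between genotypes 4.40% were called higher in untreated Pim1-/- cells and 3.51% after LPS. LPS raised 20.1% and lowered 14.7% in WT cells and raised 14.6% and lowered 10.4% in Pim1-/- cells. The LPS response was called more negative in Pim1-/- cells for 4.43%.

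Markers of other cell types were low beside those of macrophages. Mean sums per group were at most 6.99 FPKM for dendritic cell, 7.45 for neutrophil, 1.48 for B cell, 5.04 for T and NK cell, 0.0874 for mast cell and basophil, 11.3 for erythroid, 11.2 for stromal and 13.9 FPKM for stem and progenitor markers. Cd3e, Cd3g and Ncr1 were at 0 in each group. The progenitor marker Cd34 was at 0.844 ± 0.0706 FPKM in untreated WT, 11.5 ± 0.228 in untreated Pim1-/-, 0.564 ± 0.107 in LPS-treated WT and 5.53 ± 0.352 FPKM in LPS-treated Pim1-/- cells, while Kit, another progenitor marker, was at 1.74 ± 0.136, 2.31 ± 0.342, 0.668 ± 0.0343 and 0.573 ± 0.0565 FPKM (SD, n = 3). Tfrc, the transferrin receptor that dividing cells also carry, was the leading erythroid marker, at 11.2 ± 1.08 FPKM in untreated Pim1-/- against 4.77 ± 0.319 FPKM in untreated WT cells. The part of such cells in the E2F values was not tested.

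The genes most like each member were found by Pearson's r of log2(FPKM + 1) over the 12 libraries, which share 4 groups, so the values are given as a description. E2f7 was most like Depdc1b (0.9983), Ankle1 (0.9969) and Ticrr (0.9969). E2f1 was most like Gcsh (0.9975), H2afv and Havcr2, E2f2 most like Ccsap (0.9973), Dennd2c and Bcl7a, and E2f6 most like Mdm1 (0.9973), Rfc1 and 1600002H07Rik. Rbl1 was most like St3gal5 (0.9975), Suz12 and Nfyb, and E2f5 most like Caprin1 (0.9975), Morf4l2 and Cnep1r1. Rb1 was most like Gm5086 (0.9934), Pgpep1 and Surf1, E2f3 most like Creld2 (0.9866), and E2f4 most like Phrf1 (0.9862), Zc3h18 and Tln1. E2f8 had the lowest best match of the 10, with Tpi1 (0.9782), followed by Spred2 (0.9702) and Cd81 (0.9672).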

How the data were processed

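Total RNA of the 12 BMDM samples was made into stranded mRNA libraries and sequenced by the authors. The submitters' processing notes list bcl2fastq 2.20.0.422, cutadapt 1.18, TopHat2 2.0.13, Cuffdiff 2.2.1 and the build mm10, whereas the paper's methods name Rat rn5. For the gene annotation and the library normalization, nothing was given in the sources used here. The authors deposited 1 value per gene and library with no unit in the header, which was read as FPKM from their use of Cuffdiff and from the values. No rescaling was applied to the deposited FPKM.

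A gene was tested if 3 or more libraries reached 1 FPKM. limma 3.58.1 (R 4.3.3) fitted the mean of log2(FPKM + 1) in each of the 4 groups, with a mean-variance trend. There were 5 contrasts, with p adjusted over all 10581 genes and two-sided tests. The fit was tested on simulated data. The family members and the gene lists were chosen with earlier results of these data known. Adgre1 was listed as Emr1. From the lists of other genes, the text names up to 3 of the largest called changes in each direction, plus Mki67, Top2a, Ccnd1, Ccne1, Ccne2, Cdkn1a, Mybl2 and the DP partners with Rbl2. Ccnd2 after LPS, Cdkn2d, Cd34, Kit, Tfrc and genes with the pattern of E2f8 were named after their values were seen.

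FPKM hold no counts, so fragments were estimated from transcripts of at least 1500 nt less 150 nt, where 75.0% to 84.7% of low values per library lay within 0.1 of a whole fragment. Another effective length would shift that depth. FPKM sums were 452511 to 489710 per untreated and 713307 to 849323 per LPS-treated library. Gene positions are those of the GRCm38 annotation, and promoters those of RefSeq (GRCm38.p6).

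Replicate numbers are shared between groups. Over 3646 genes with at least 10 FPKM in every library, deviations of same-numbered libraries correlated at 0.326 to 0.456 between untreated genotypes and 0.426 to 0.683 between treatments in Pim1-/- cells. Same-numbered libraries of these groups thus shared part of their deviation. The sources do not state that they were paired, and the values cannot tell what they shared. The correlations were 0.020 to 0.366 between LPS-treated genotypes and -0.103 to 0.191 between treatments in WT cells. The replicate block was an alternative, beside the pseudocount (0.1), the filter (none, or 5 FPKM), quantile normalization and median-ratio scaling, a fit of the groups compared, no trend, no fold threshold and leaving out each library. Fragment estimates, motif searches and plots used Python 3.11.15 with scipy 1.17.1, pandas 2.3.3 and matplotlib 3.10.9.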

Additional observations from a re-analysis of the deposited data

Results flagged for a closer look

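On the log2(FPKM + 1) scale the test of the difference in LPS response (limma, Pim1-/- minus WT, 3 libraries per group) was past the threshold for 4 family members. E2f8 had a difference of -3.41 on the log2 scale, Rbl1 of -2.05, E2f7 of -1.45 and E2f2 of -1.02. In E2f8 every LPS-treated WT library lay above every untreated WT library and every LPS-treated Pim1-/- library lay below every untreated Pim1-/- library. In Rbl1 the response had the same direction in both genotypes. The values of E2f7 and E2f2 rest on few fragments in LPS-treated cells, and a difference in fold was not tested on fragments for either. From fragments E2f2 fell 79.1-fold in WT and 74.1-fold in Pim1-/- cells, and its difference was -0.58 and not called with a pseudocount of 0.1. E2f7 was tested only through the untreated Pim1-/- libraries, where it is high.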

How the results depend on the processing

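The number of family members called was 4 between untreated genotypes, 2 between LPS-treated genotypes, 6 for LPS in WT, 7 for LPS in Pim1-/- cells, and 4 where the LPS responses were compared. With no fold threshold these became 10, 8 and 10 for the genotype comparisons without and with LPS and the difference in response, where 78.8%, 80.9% and 68.5% of all genes passed. Between LPS-treated genotypes quantile normalization left 1, without E2f1 at 0.87, and leaving out 1 library gave 1 to 2. The difference in LPS response had 2 to 4 members called when 1 library was left out, and had 2 without Pim1-/- untreated replicate 3, where E2f7 failed the filter and E2f2 was not called. E2f7 failed the filter without any 1 of the untreated Pim1-/- libraries, which left 3 called between untreated genotypes and 6 for LPS in Pim1-/- cells. E2f2 lost its difference call also without LPS-treated Pim1-/- replicate 1, untreated WT replicate 2 or LPS-treated WT replicate 1. Between untreated genotypes quantile normalization gave 5, with E2f6 added. With the replicate block the counts stayed at 4, 2, 6, 7 and 4, and the block changed no call of a member. No member's called change turned direction under any alternative run, and of the values for single members under alternatives 753 kept their side of the threshold, 24 moved past it and 9 moved under it. A filter of 5 FPKM removed E2f7. The fit of only the groups compared gives no difference in response. Over all genes, a pseudocount of 0.1 gave 1442 calls between LPS-treated genotypes instead of 916, and 1075 for the difference in response instead of 706, of which 47.4% rather than 33.6% were higher. Quantile normalization moved the median of all genes with LPS to -0.17 in both genotypes, and higher calls in WT from 57.8% to 47.4%. Depth limits E2f7 and E2f2 in LPS-treated cells, where 1 fragment per kilobase is worth 0.0319 to 0.0493 FPKM. The library factor bears on the LPS calls of E2f5 and Rbl1 in Pim1-/- cells and on the lack of a call for Rb1.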
